A study of Arabidopsis thaliana with 8 samples.

Results

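The time of day change in sun is the comparison of Arabidopsis leaf and shoot apex tissue harvested 8 h after lights on with tissue harvested 5 h after lights on, in plants that were never shaded. Its members are the 4 sun libraries among the 8 libraries of the series, 2 at each time, and the 18518 of 33602 genes in the table that reached at least 1 CPM (the deposited unit, read counts of a gene relative to library size) in 2 or more of these 4 libraries. The plants were wild-type Arabidopsis of the Col ecotype, 2 weeks old, grown in long days, and every library held leaves and shoot apices of 5 pooled plants after roots, hypocotyls and cotyledons had been taken off. Treatment began 4 h after lights on. The groups called sun 1 h and sun 4 h stayed in simulated sun for 1 h or 4 h from then on, and the groups called shade 1 h and shade 4 h were moved to simulated shade, a light enriched in far-red, for the same times. Time of day and time since the plants were sorted into treatments cannot be told apart in this design.

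The plant circadian clock is a set of transcription factors that repress or activate each other in a daily order. The related MYB factors CCA1 and LHY peak around dawn, the pseudo-response regulators PRR9, PRR7 and PRR5 follow one another through the day, and TOC1, GI and the evening complex of ELF3, ELF4 and LUX peak towards dusk. The clock and light together set the daily rhythm of transcripts for photosynthesis, starch turnover and growth, and starch is stored in leaves by day and broken down at night.

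The sun libraries held between 3532890 and 4530505 reads on genes, and the 8 libraries together ranged from 1154019 (shade 4 h replicate 1) to 4680620. One read equalled 0.221 to 0.279 CPM in the sun libraries, and the counting error at 10 CPM was a coefficient of variation of 14.9% to 16.7% in them and 29.3% in the smallest library. Spearman's correlation across genes was 0.978 between the replicates of sun 1 h, 0.984 between those of sun 4 h and 0.957 to 0.963 across the 2 times. All 6 mesophyll markers were tested, none of the 6 floral markers was, and 2 of 11 root markers were. These 2 were PYK10, at 172 and 202 CPM at 1 h and 193 and 192 CPM at 4 h, and WOX5, at no more than 1.99 CPM. Of 9 shoot apex markers 5 were tested, and the stem cell gene WUS was at 0 in all 4 sun libraries. In bulk tissue fewer cells of a type and less RNA per cell cannot be told apart.

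Between 5 h and 8 h after lights on, 459 genes rose and 290 fell, 2.48% and 1.57% of the genes tested and 4.04% in both directions (limma on log2(CPM + 1), Benjamini-Hochberg adjusted p under 0.05). The replicates were separate pools of plants, and the p-values measure the spread between such pools. In all 749 genes both 4 h libraries lay on one side of both 1 h libraries, which was so in 56.3% of all tested genes. The median change was 0.92 on the log2 scale in the genes that rose, -0.99 in those that fell and 0.07 in all tested genes. Changes over 1 log2 unit were called in 192 rising and 143 falling genes. At an adjusted p under 0.001, 22 rose and 26 fell (0.259% of the genes tested). The number of calls moved with single libraries, from 88 without either of the sun 4 h replicates, 113 and 191 without sun 1 h replicates 2 and 1, to 1796 and 1771 without shade 4 h replicates 1 and 2, which share the estimate of spread. The split between rises and falls moved with the scaling: 61.3% of calls were rises as deposited, 46.6% after median ratio rescaling, 49.9% after quantile normalization and 42.5% with edgeR on the recovered reads.

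Among the clock genes, CCA1, RVE7 and the LNK genes of the morning fell, and RVE2 of the same list and TOC1, ELF4 and JMJD5 of the evening rose. Of 13 tested morning genes 6 fell and 1 rose, with a median change of -1.23 on the log2 scale against 0.07 for all tested genes. Of 18 day and evening genes 9 rose and 4 fell, with a median of 0.57. These counts were the same after median ratio rescaling, quantile normalization and with edgeR. DESeq2 called 4 morning genes lower and 3 day and evening genes lower, and gave no adjusted p to 5 and 1 genes of these lists.

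**Figure D1:**
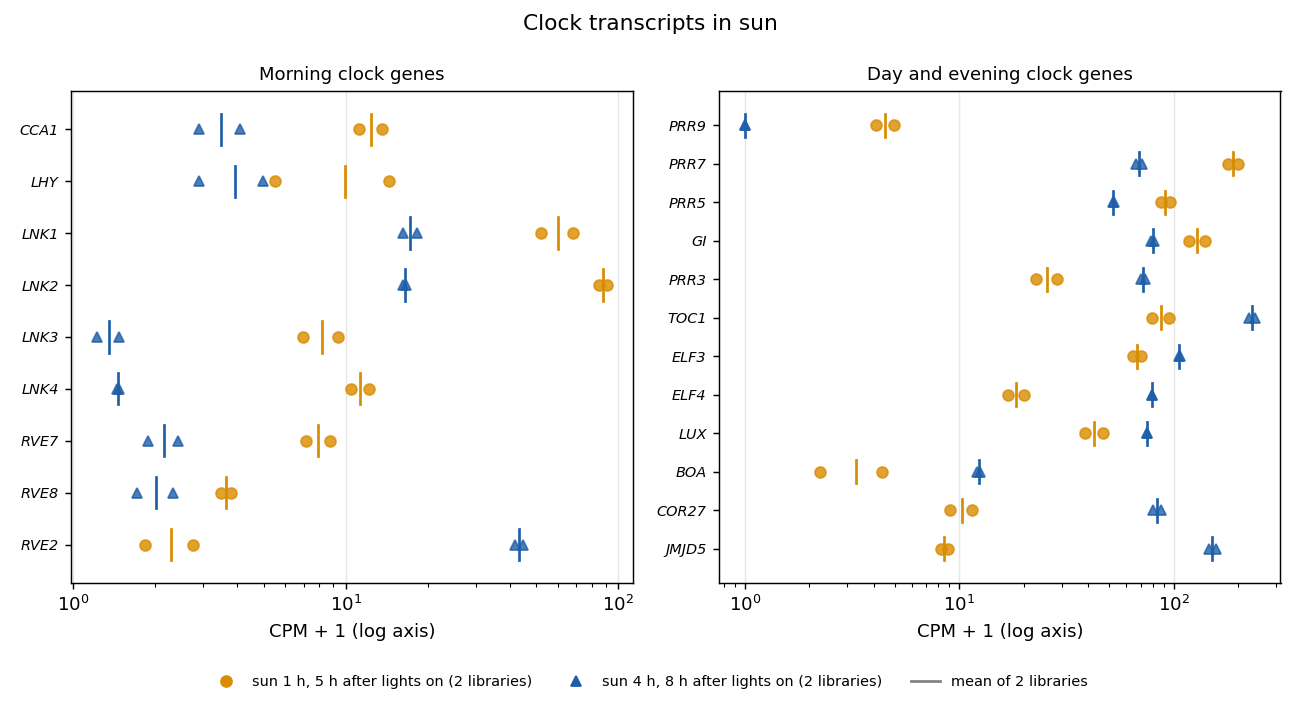
CPM + 1 on a log axis for 9 morning genes (left) and 12 day and evening genes (right) in the 4 sun libraries. Circles are the 2 libraries at 5 h after lights on, triangles the 2 at 8 h, and short lines their means. RVE2 lies at 1.74 and 0.837 CPM at 5 h and at 43.9 and 40.8 CPM at 8 h, while the 4 LNK genes are lower at 8 h.

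CCA1, a repressor of evening genes, had 10.2 and 12.6 CPM at 1 h and 3.09 and 1.90 CPM at 4 h, a log2 change of -1.84 (standard error, SE, 0.40, limma adjusted p = 0.0223). Both later libraries were below both earlier ones. Its partner LHY had 4.48 and 13.4 CPM at 1 h and 3.97 and 1.90 CPM at 4 h, so that the replicates differed most at 1 h, and it did not pass the test (log2 change -1.23, standard error 0.48, adjusted p = 0.188). The LNK genes, which encode co-activators that work with the REVEILLE (RVE) factors, all fell. LNK2 went from 84.2 and 90.2 to 15.2 and 15.7 CPM, a log2 change of -2.42 (SE 0.20, limma adjusted p = 2.93e-05). LNK1 went from 67.5 and 51.1 to 15.2 and 17.3 CPM (-1.79, standard error 0.19, adjusted p = 0.000155). The 4 h values of both genes were close to each other and far below the 1 h values. LNK4 had 9.46 and 11.2 CPM at 1 h and under 0.5 CPM at 4 h (-2.95, standard error 0.40, adjusted p = 0.00125). LNK3 was covered by 54 reads over the 1 h libraries and 3 over the 4 h libraries, a ratio of 20.7 with an exact 95% interval for counting error of 6.72 to 104 (limma log2 change -2.59, adjusted p = 0.00598).

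The RVE genes encode MYB factors related to CCA1, and they did not move together. RVE2 rose from 1.74 and 0.837 to 43.9 and 40.8 CPM, a log2 change of 4.27 (SE 0.30, limma adjusted p = 6.05e-06). RVE7 went the other way, from 7.72 and 6.14 to 0.882 and 1.42 CPM (-1.89, standard error 0.44, adjusted p = 0.0307). In neither gene did the times overlap. RVE8, an activator of evening genes, had a log2 change of -0.87 (adjusted p = 0.427), its close relative RVE4 of -0.39 (adjusted p = 0.356) and RVE1, which promotes auxin synthesis, of -0.28 (adjusted p = 0.812), none of which passed. AT4G01280 and AT5G52660, of the same list, had log2 changes of -0.76 (adjusted p = 0.184) and 0.56 (adjusted p = 0.462), and ASG4 was under the filter. RVE8 and RVE1 had under 3 CPM in each sun library, which limits what could be detected.

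The day-phased PRR genes, which encode repressors of CCA1 and LHY, fell, in contrast to the later TOC1 and PRR3 of the same family. PRR9 had 3.98 and 3.07 CPM at 1 h and no read at 4 h, where 27 reads against the floor of 3 reads over the group gave a level at least 10.4-fold higher at 1 h (adjusted p = 0.0142 from limma). PRR7 fell from 177 and 199 to 65.9 and 69.8 CPM (-1.45, standard error 0.14, adjusted p = 7.52e-05), and PRR5 from 94.9 and 86 to 51.4 and 51.3 CPM (-0.80, standard error 0.16, adjusted p = 0.0133). TOC1 rose from 78.5 and 94.1 to 238 and 223 CPM (1.41, standard error 0.14, adjusted p = 0.000147). PRR3 rose from 27.6 and 21.8 to 72.6 and 69.3 CPM (1.49, standard error 0.19, adjusted p = 0.000733). In each of these genes the gap between times was wider than the gap between replicates.

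All the evening complex genes rose. ELF4 went from 18.9 and 15.9 to 78.3 and 78.3 CPM (log2 change 2.11, SE 0.17, limma adjusted p = 2.82e-05). LUX, the DNA-binding member, went from 37.4 and 45.8 to 74.1 and 74.1 CPM (0.83, standard error 0.16, adjusted p = 0.0132), and its close relative BOA from 1.25 and 3.35 to 11.5 and 11.2 CPM (1.98, standard error 0.38, adjusted p = 0.0107). ELF3, the scaffold of the complex, had the smallest called rise of the evening genes, from 63.5 and 69.5 to 104 and 105 CPM (0.65, standard error 0.14, adjusted p = 0.0222). GI, which also acts in flowering, fell from 117 and 138 to 77.2 and 80.0 CPM (-0.69, standard error 0.15, adjusted p = 0.0224). The blue light receptors of the same pathway did not pass, with log2 changes of 0.39 in FKF1 (adjusted p = 0.251), 0.06 in ZTL and -0.24 in LKP2. Nor did TIC, a regulator of the clock (0.49, adjusted p = 0.109), or CHE, a TCP factor that represses CCA1 (-0.38, adjusted p = 0.40).

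JMJD5, a jumonji-domain protein of the clock, and COR27, a repressor of clock genes that cold induces, had the largest rises of the day and evening list. JMJD5 went from 7.22 and 7.81 to 156 and 145 CPM, a log2 change of 4.15 (SE 0.19, limma adjusted p = 1.1e-07). COR27 went from 10.5 and 8.09 to 79.4 and 86.2 CPM (3.04, standard error 0.21, adjusted p = 6.05e-06). AT4G33980, of the same list, went from 4.98 and 3.07 to 25.6 and 25.2 CPM (2.42, standard error 0.29, adjusted p = 0.000612). The replicates of each time lay close together in these genes and the times far apart.

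MYB factors of the clock bind the evening element, AAAATATCT, in evening-phased promoters, and the promoters of clock genes were therefore read for it. The window was the 250 bases before the annotated gene start in the RefSeq TAIR10.1 genome, searched on both strands. The evening element stood in 6 of 18 windows of day and evening genes, among them PRR5, TOC1, LUX, BOA and FKF1, and in 1 of 13 of morning genes (RVE7). It was in 2.55% of the 18443 windows of all tested genes, 6.75% of those that rose and 5.19% of those that fell. A match is a description of these letters in the window and not a bound site, and no test was run on these shares. Windows of genes that rose (TOC1, LUX and BOA) and fell (PRR5 and GRP8) are printed 5′ to 3′ on the strand of the gene, with each evening element on either strand in capitals. They are TOC1 at chr5:24674713-24674962 (+ strand), LUX at chr3:17182792-17183041 (+ strand), BOA at chr5:24003638-24003887 (+ strand), PRR5 at chr5:8358547-8358796 (- strand) and GRP8 at chr4:18275217-18275466 (- strand).
TOC1: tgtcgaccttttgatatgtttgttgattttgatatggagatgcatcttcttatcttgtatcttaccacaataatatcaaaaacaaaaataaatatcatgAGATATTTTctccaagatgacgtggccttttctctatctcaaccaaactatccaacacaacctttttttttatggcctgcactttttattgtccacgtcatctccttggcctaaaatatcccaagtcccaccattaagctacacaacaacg
LUX: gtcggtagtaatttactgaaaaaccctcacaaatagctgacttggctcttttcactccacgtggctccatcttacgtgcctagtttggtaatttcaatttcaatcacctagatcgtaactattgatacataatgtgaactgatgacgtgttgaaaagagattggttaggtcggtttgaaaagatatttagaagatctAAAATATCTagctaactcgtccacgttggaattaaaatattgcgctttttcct
BOA: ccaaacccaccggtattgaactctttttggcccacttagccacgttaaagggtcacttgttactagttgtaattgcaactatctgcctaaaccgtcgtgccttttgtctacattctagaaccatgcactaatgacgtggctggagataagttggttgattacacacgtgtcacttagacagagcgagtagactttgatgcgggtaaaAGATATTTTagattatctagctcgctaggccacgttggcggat
PRR5: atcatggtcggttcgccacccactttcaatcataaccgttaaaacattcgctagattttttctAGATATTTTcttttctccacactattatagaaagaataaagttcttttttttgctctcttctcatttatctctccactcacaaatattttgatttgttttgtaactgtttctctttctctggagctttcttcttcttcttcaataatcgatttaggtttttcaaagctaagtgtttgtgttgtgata
GRP8: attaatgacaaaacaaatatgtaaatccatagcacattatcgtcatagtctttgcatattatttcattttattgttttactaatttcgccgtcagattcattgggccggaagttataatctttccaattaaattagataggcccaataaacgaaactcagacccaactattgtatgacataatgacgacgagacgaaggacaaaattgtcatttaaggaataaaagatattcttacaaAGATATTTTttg

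Each of these windows held 1 copy. The copies of LUX and BOA began 53 and 43 bases before the start, those of TOC1 and PRR5 151 and 187 bases before it. TOC1 and PRR5 changed in opposite directions between the times, as did BOA and GRP8. The CCA1-binding site, AAAAATCT, stood in 6.89% of all windows, 8.71% of those that rose and 7.61% of those that fell. The G-box CACGTG, a site of PIF and other bHLH and bZIP factors, stood in 7.31%, 8.71% and 9.0%.

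Clock output and flowering genes moved less uniformly, with 1 rise, 3 falls and a median of -0.26 over 15 tested. COL9, a CONSTANS-like protein that delays flowering, rose from 25.7 and 26.5 to 107 and 117 CPM (log2 change 2.06, SE 0.18, limma adjusted p = 3.59e-05). GRP8, a clock-controlled RNA-binding protein, fell from 679 and 476 to 271 and 270 CPM (-1.07, standard error 0.25, adjusted p = 0.0328), while its homologue GRP7 did not pass (0.57, adjusted p = 0.197). Of the repressors of flowering, CDF3 fell from 54.8 and 60.3 to 28.7 and 29.9 CPM (-0.95, adjusted p = 0.00799) and TEM2 from 19.7 and 20.7 to 8.60 and 5.94 CPM (adjusted p = 0.0306). The later libraries lay below the earlier ones in each of these falling genes.

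Transcripts for the light-harvesting antenna, the proteins that hold chlorophyll around the photosystems, fell in 11 of 21 genes and rose in 1. Their median change was -0.80 on the log2 scale. Over all tested genes 1.57% fell, 2.48% rose and the median was 0.07. LHCB2.3 went from 728 and 763 to 117 and 93.3 CPM, a log2 change of -2.82 (SE 0.15, limma adjusted p = 4.37e-07). LHCB2.1 and LHCB2.2 fell by 2.48 and 2.03 on the log2 scale (adjusted p = 9.5e-06 and 8.82e-06). The LHCB2 copies, like those of LHCB1, are near-identical in sequence, and reads may be split uncertainly between them. In LHCB1 the copies LHCB1.1, LHCB1.2, LHCB1.4 and LHCB1.5 fell by 1.14 to 1.56, while LHCB1.3 had 11606 and 14178 CPM at 1 h and 11672 and 12713 CPM at 4 h (log2 change -0.07, adjusted p = 0.921).

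Outside the near-identical copies, LHCB3 went from 4259 and 4289 to 1413 and 1426 CPM (log2 change -1.59, SE 0.21, limma adjusted p = 0.00101). LHCB4.2 went from 1237 and 1205 to 524 and 548 CPM (-1.19), whereas LHCB4.1 had 3247 and 3268 CPM at 1 h and 3115 and 3229 CPM at 4 h (-0.04, adjusted p = 0.945). LHCB4.3 was the 1 antenna gene called higher, from 14.9 and 17.6 to 30.2 and 31.1 CPM (0.88, adjusted p = 0.0421). That call was lost after median ratio rescaling, quantile normalization and with DESeq2, which called 0 higher. Of the antenna of photosystem I, LHCA4 fell by 1.01 and LHCA1 by 0.80, and LHCA2 had a log2 change of 0.11 that did not pass. The gene models of LHCB3, LHCB1.5 and LHCA4 overlap those of ATM2, RWA3 and ATSMC2 on the other strand, and the sources do not say that reads were counted by strand.

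**Figure D2:**
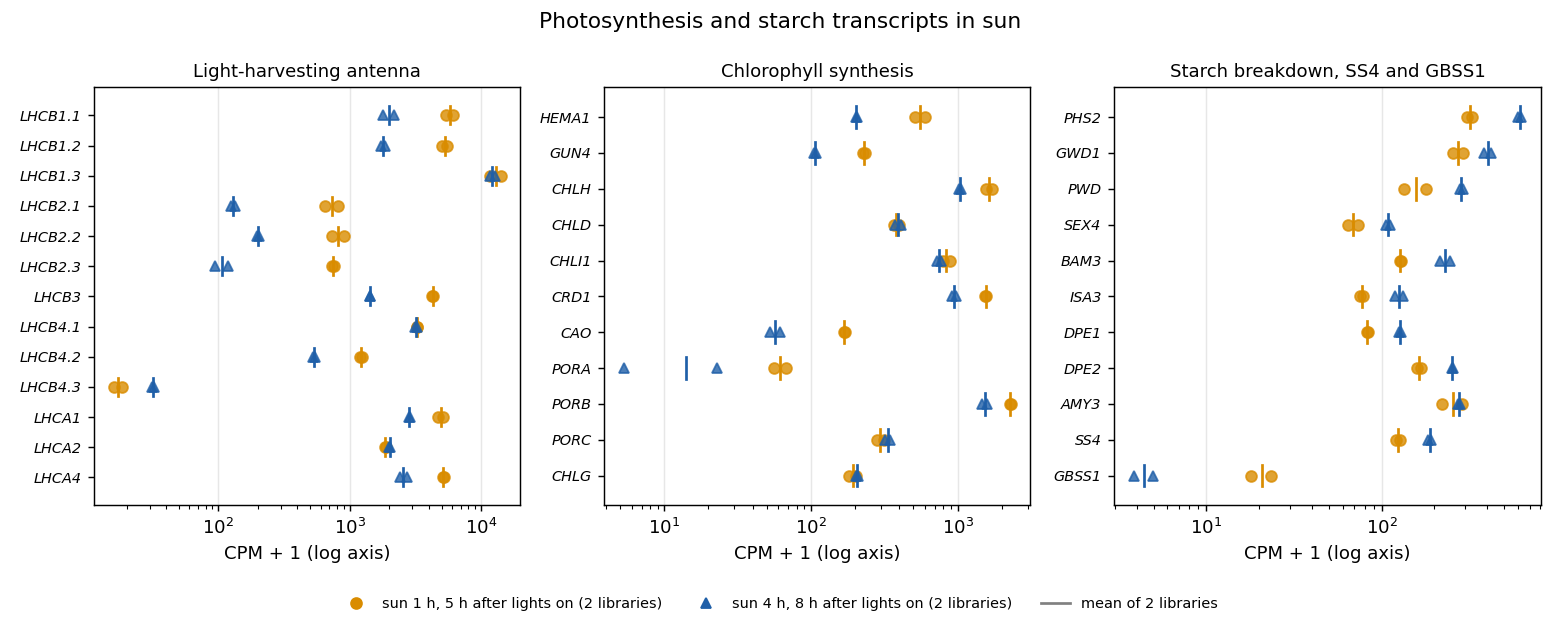
CPM + 1 on a log axis for 13 antenna genes (left), 11 chlorophyll synthesis genes (centre), and 9 starch breakdown genes with SS4 and GBSS1 (right) in the 4 sun libraries. Circles are the libraries at 5 h, triangles those at 8 h, and short lines the means. The triangles lie left of the circles for CAO and HEMA1 and right of them for PHS2 and BAM3.

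Chlorophyll synthesis genes fell with the antenna, 6 of 14 (42.9%, against 1.57% of all tested genes) and none higher, with a median of -0.46. HEMA1, the first committed enzyme of tetrapyrrole synthesis, went from 595 and 514 to 202 and 205 CPM (log2 change -1.44, SE 0.16, limma adjusted p = 0.000225). CAO (AT1G44446), which makes chlorophyll b from a, went from 169 and 166 to 51.2 and 60.3 CPM (-1.57, adjusted p = 6.68e-05), and GUN4, a regulator of magnesium chelatase, from 234 and 226 to 107 and 103 CPM (-1.12, adjusted p = 0.000587). The times were well separated in all 3. CHLH, a subunit of that chelatase, fell by 0.66 and CRD1, of the cyclase step, by 0.71. PORA, a protochlorophyllide reductase, went from 54.5 and 66.1 to 21.8 and 4.27 CPM, with the 4 h replicates apart (-2.48, adjusted p = 0.0193). GLK2, a transcription factor of chloroplast development, went from 103 and 101 to 41.0 and 38.5 CPM (-1.34, adjusted p = 0.000363). GLK2 is in no list and was chosen after its values were seen.

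Starch breakdown genes moved the other way, with 8 of 17 higher, none lower and a median of 0.62 (5 higher after median ratio rescaling). Over all tested genes 2.48% were higher and the median was 0.07. PHS2, a cytosolic glucan phosphorylase, went from 329 and 308 to 625 and 599 CPM (log2 change 0.94, SE 0.14, limma adjusted p = 0.0023). BAM3, the main chloroplast beta-amylase of leaves at night, went from 127 and 126 to 245 and 215 CPM (0.86, adjusted p = 0.00491). In both genes the lower 4 h library was well above the higher 1 h library. The kinases that phosphorylate starch, GWD1 and PWD (AT5G26570), rose by 0.56 and 0.87, the phosphatase SEX4 by 0.67, the debranching enzyme ISA3 by 0.71 and the glucanotransferases DPE1 and DPE2 by 0.62 and 0.63. BAM5 was not called and differed between replicates more than between times, at 21.4 and 0.558 CPM at 1 h and 1.54 and 19.2 CPM at 4 h.

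Of 15 starch synthesis genes 1 rose and 1 fell, with a median of 0.23. GBSS1, which makes amylose, went from 22.4 and 17 to 3.97 and 2.85 CPM (log2 change -2.23, SE 0.30, limma adjusted p = 0.00116). SS4, needed to start starch granules, went from 126 and 120 to 192 and 182 CPM (0.60, adjusted p = 0.0288), and was not called after median ratio rescaling. Among 15 markers of sugar starvation, genes that darkness and low sugar induce, 2 fell and none rose, with a median of -0.14. Over all tested genes 1.57% fell. DIN6, an asparagine synthetase, went from 14.7 and 18.4 to 1.98 and 2.14 CPM (-2.51, adjusted p = 0.0346). DIN10, a raffinose synthase family protein, went from 103 and 176 to 54.2 and 49.6 CPM (-1.36, adjusted p = 0.00598). Of the 15 markers 5 changed upwards and 10 downwards. DRM1 and DRM2 changed by 0.59 and 0.86 and did not pass (limma adjusted p = 0.128 and 0.0909). With the 4 sun libraries alone 2 markers were called higher and 3 lower, and DESeq2 called 1 lower.

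The ribosomal proteins, the parts of the translation machinery, formed the longest list, with 51 of 282 tested genes lower and 3 higher, and a median of -0.42 on the log2 scale against 0.07 for all tested genes. The 51 falls lay between -1.48 and -0.53. The number lower was 66 after median ratio rescaling, 55 after quantile normalization, 89 with edgeR, 88 with DESeq2 and 138 with the 4 sun libraries alone. Over all tested genes the number lower was 290, and in these settings 367, 348, 608, 410 and 1021. AT2G37600 went from 105 and 118 to 40.6 and 37.8 CPM (-1.48, adjusted p = 0.00768 from limma). AT4G12600, whose annotation names only a family (L7Ae/L30e/S12e/Gadd45), went from 132 and 133 to 54.5 and 51.3 CPM (-1.31, adjusted p = 0.000612). AT3G53740 went from 349 and 342 to 182 and 176 CPM (-0.95, adjusted p = 0.00568). Replicates lay close together and the times apart in all 3. The 3 rises were PSRP3/1 (0.89), RPL12-A (0.80) and AT3G13120 (0.52). PSRP3/1 and RPL12-A are proteins of the plastid ribosome, and the annotation of AT3G13120, an S10p/S20e family protein, names no compartment. Many ribosomal protein genes have near-identical copies, so values of single copies are uncertain. The summed level of the list was 69553 and 76025 CPM at 1 h and 56028 and 57965 CPM at 4 h.

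**Figure D3:**
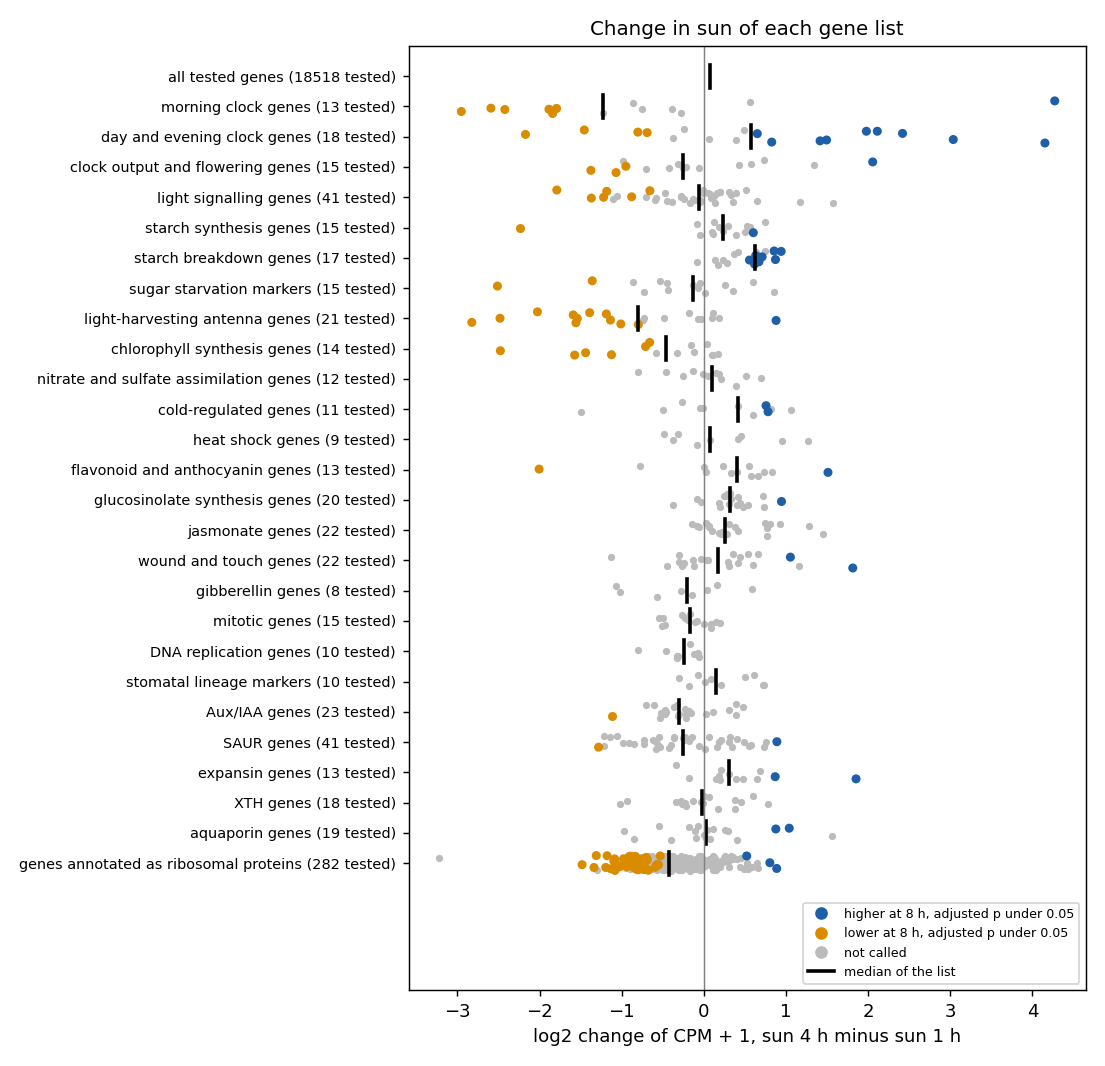
Log2 change of CPM + 1 from 5 h to 8 h after lights on, for each tested gene of 26 lists (dots) with the median of the list (black bar), and the median of all tested genes in the top row. Blue dots are genes called higher and orange dots genes called lower at an adjusted p under 0.05. The medians lie at -1.23 for morning clock genes, -0.80 for the antenna, 0.62 for starch breakdown and -0.42 for ribosomal proteins.

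Site II elements, TGGGCC, are bound by TCP factors and are frequent before ribosomal protein genes. In the 250 bases before the start, on either strand, they stood in 60.78% of the 51 ribosomal genes that fell, 47.87% of all 282 tested ribosomal genes, 21.43% of the other genes that fell, 11.11% of those that rose and 17.42% of all tested genes. The telo-box AAACCCTAA stood in 3.46% of windows of all genes that fell and 2.19% of all tested genes. With 50 bases after the start added, these shares were 12.46% and 3.32%. In that longer window the telo-box stood in 25.49% of the ribosomal genes that fell and 20.92% of all tested ribosomal genes. It stood in 9.66% of the other genes that fell. The windows of 2 ribosomal genes that fell are printed 5′ to 3′ on the strand of the gene with each site II element in capitals, AT3G53740 at chr3:19915067-19915316 (- strand) and AT2G37600 at chr2:15775375-15775624 (- strand).
AT3G53740: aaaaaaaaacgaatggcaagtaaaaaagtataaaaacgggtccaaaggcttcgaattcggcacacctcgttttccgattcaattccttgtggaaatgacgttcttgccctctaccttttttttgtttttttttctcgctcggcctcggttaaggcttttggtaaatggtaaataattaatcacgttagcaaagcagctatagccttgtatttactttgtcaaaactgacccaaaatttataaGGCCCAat
AT2G37600: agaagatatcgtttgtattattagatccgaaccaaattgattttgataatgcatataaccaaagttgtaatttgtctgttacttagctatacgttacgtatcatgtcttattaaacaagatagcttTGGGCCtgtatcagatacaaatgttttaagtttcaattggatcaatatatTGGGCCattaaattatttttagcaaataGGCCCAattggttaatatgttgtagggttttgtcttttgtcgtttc

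The element of AT3G53740 began 8 bases before the start, and those of AT2G37600 began 124, 74 and 46 bases before it. FIB2 and HDA3, which are in no list, are named after their values were seen. FIB2, a fibrillarin that modifies ribosomal RNA, went from 125 and 113 to 46.1 and 38.9 CPM (-1.47, adjusted p = 0.000664 from limma), and HDA3, a nucleolar histone deacetylase, from 145 and 141 to 58.0 and 51.3 CPM (-1.37, adjusted p = 0.00552).

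Of 41 light signalling genes 6 fell (14.6%, against 1.57% of all tested genes) and none rose, with a median of -0.07. Quantile normalization called 1 higher and 6 lower, and edgeR 1 higher and 7 lower. With the 4 sun libraries alone 2 were called higher and 10 lower. PIF5 and PIF4, bHLH factors that promote elongation and that phytochrome removes in light, both fell. PIF5 went from 56.0 and 56.4 to 19.4 and 23.0 CPM (-1.37, adjusted p = 0.00125 from limma), and PIF4 from 87.7 and 101 to 49.6 and 52.0 CPM (-0.88, adjusted p = 0.00991). BBX24 and BBX25, B-box proteins of photomorphogenesis, fell by 1.18 and 1.79, the bHLH-related inhibitor PAR1 by 1.22 and SPA1, a partner of the ubiquitin ligase COP1, by 0.66. In all 6 genes both 4 h libraries lay below both 1 h libraries.

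The Aux/IAA, SAUR, expansin and aquaporin lists had 1 or 2 calls each, where 4.04% of all tested genes were called. Of 23 tested Aux/IAA genes, which encode repressors of auxin response, IAA14 fell (-1.12, adjusted p = 0.0377) and the median was -0.31. Of 41 SAUR genes AT4G38860 fell (-1.28) and AT1G72430 rose (0.89). Of 13 expansins, proteins that loosen cell walls, EXPA16 rose from 10.2 and 8.37 to 43.7 and 29.7 CPM (1.85, adjusted p = 0.000922 from limma) and EXPA10 rose by 0.87 (not called after median ratio rescaling or quantile normalization). Of 19 aquaporins the tonoplast channels GAMMA-TIP and TIP2;2 rose, GAMMA-TIP from 307 and 365 to 702 and 677 CPM (1.04, adjusted p = 0.00325). TIP2;2 was not called after median ratio rescaling, quantile normalization or with DESeq2, each of which called 1 aquaporin lower.

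Among genes of stress and secondary metabolism, MYBL2, a repressor of anthocyanin synthesis, fell from 56.5 and 65.9 to 15.4 and 13.5 CPM (-2.0, adjusted p = 0.000196 from limma). MYB111, an activator of flavonol synthesis, rose from 6.72 and 6.14 to 17.6 and 23.0 CPM (1.51, adjusted p = 0.0126). They were the calls among 13 flavonoid genes. In 11 cold-regulated genes KIN2 and RD29A rose by 0.76 and 0.78, RD29A not being called after median ratio rescaling or quantile normalization. In 20 glucosinolate genes CYP83B1 rose by 0.94. The wound and touch list had 2 rises among 22 tested genes, MPK3, a stress-activated kinase, by 1.05 and SIB1 by 1.81. Beside the counts of these lists, 2.48% of all tested genes were called higher and 1.57% lower. Among 7 tested vascular markers XCP1, a xylem protease, rose from 7.97 and 5.30 to 19.2 and 17.3 CPM (adjusted p = 0.0355). Of the 6 mesophyll markers only CA1, a chloroplast carbonic anhydrase, was called. CA1 rose from 1530 and 1387 to 2605 and 2437 CPM (0.79, adjusted p = 0.0219). The uncalled markers went both ways, RBCS1B by -0.33, RCA by -0.32, RBCS1A by 0.48, RBCS2B by 0.24 and RBCS3B by 0.25.

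Limma called no gene in 8 lists besides the markers of root and shoot apex. Over all tested genes 18.3% had an unadjusted p under 0.05. For 22 jasmonate genes there were 4 at an unadjusted p under 0.05, all higher, and edgeR and DESeq2 called 0. For the 12 nitrate and sulfate genes, 9 heat shock genes, 8 gibberellin genes, 15 mitotic genes, 10 DNA replication genes, 10 stomatal lineage markers and 18 XTH genes the unadjusted numbers were 4, 2, 1, 2, 3, 3 and 3. For these lists edgeR called 1, 0, 0, 0, 1, 0 and 1, and DESeq2 called 1, 0, 0, 0, 1, 0 and 0. Limma called no marker of root or shoot apex, with 0 at an unadjusted p under 0.05 and 0 with edgeR and DESeq2 in both.

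VSP2, LOX2 and DFR differed between the replicates of a time. VSP2, a vegetative storage protein that jasmonate induces, had 350 and 17.3 CPM at 1 h and 41.2 and 270 CPM at 4 h. LOX2, a lipoxygenase of jasmonate synthesis, had 464 and 151 CPM at 1 h and 467 and 884 CPM at 4 h. The summed CPM of the jasmonate list was 1679 and 681 at 1 h and 1082 and 2298 at 4 h. DFR, of anthocyanin synthesis, had 30.4 and 6.14 CPM at 1 h and 18.7 and 34.9 CPM at 4 h. The times overlapped in VSP2 and DFR, and in LOX2 the higher 1 h library was just below the lower 4 h library (adjusted p = 0.227). The part of these differences in the other results was not tested.

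**Figure D4:**
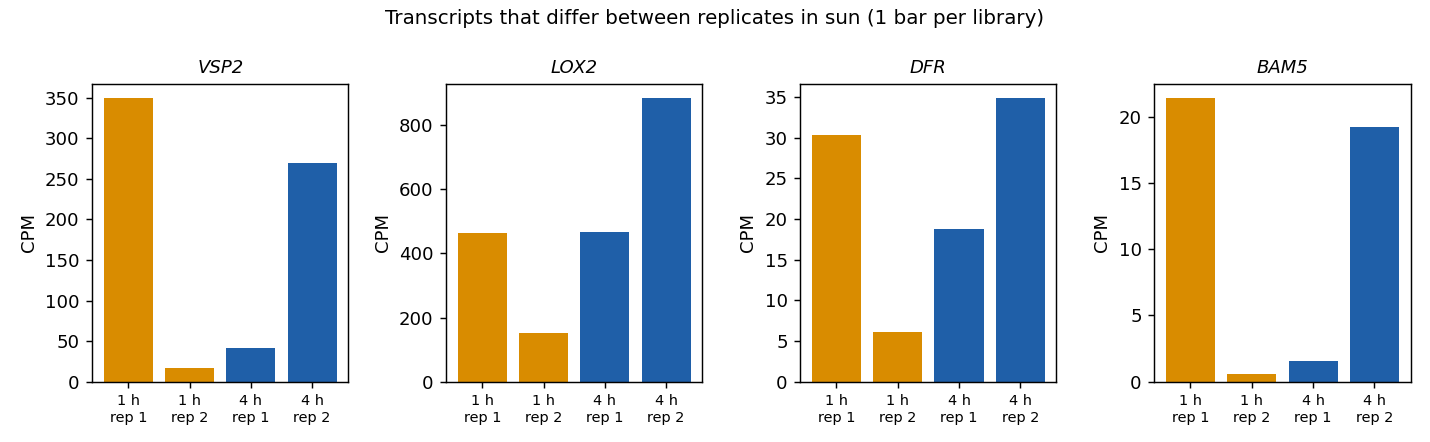
CPM of genes whose replicates differ, 1 bar per sun library from an axis at 0 (orange 5 h, blue 8 h after lights on). VSP2 is highest in 1 h replicate 1 (350 CPM) and 4 h replicate 2 (270 CPM), so that the times overlap.

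Besides RVE2, JMJD5 and COR27, the largest rises included PCC1, ACD6 and WRKY54. PCC1, whose annotation is pathogen and circadian controlled, had 0.498 and 0 CPM at 1 h and 18.7 and 37 CPM at 4 h, which were 2 and 241 reads over the libraries of each time, a ratio of 105 with an exact 95% interval for counting error of 28.7 to 869 (limma adjusted p = 4.88e-05). ACD6, a membrane protein that promotes salicylic acid defence, went from 17.2 and 6.70 to 145 and 149 CPM (3.64, standard error 0.38, adjusted p = 0.000155), and WRKY54, a WRKY factor, from 3.98 and 1.4 to 24.9 and 20.7 CPM (2.78, adjusted p = 0.00587). PCC1 was the 1 gene called among 6 tested genes of the salicylic acid list, whose median was 0.58. In that list 4 genes changed upwards and 2 downwards. The downward changes were -0.76 in ICS1, whose times did not overlap, and -0.22 in PAD4, neither of them called. In ACD6 and WRKY54 the 1 h replicates differed by over 2-fold, and replicate 2 was the lower one in both. AT2G25510, AT1G19960 and AT5G42530 rose by 2.97, 2.82 and 2.69. AT1G18530, TET11 and TET16, neighbours on chromosome 1, had no read at 1 h and 50, 49 and 49 reads over the 4 h libraries, at least 14.5-fold and 14.2-fold higher for the first and the tetraspanins. Their reads were the same or nearly so in each library, so the 3 values are uncertain as separate genes.

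The largest fall was in CIPK20, a protein kinase that calcineurin B-like calcium sensors bind, from 54.3 and 63.1 to 3.75 and 2.61 CPM (log2 change -3.85, SE 0.23, limma adjusted p = 1.46e-06). BBX28, a B-box protein, went from 30.4 and 25.4 to 3.53 and 3.32 CPM (-2.70, adjusted p = 0.00131), and AT3G21670, a major facilitator transporter, from 22.9 and 24.0 to 1.98 and 3.32 CPM (-2.77, adjusted p = 0.0106). The 1 h replicates of these 3 genes were close together. They were far apart in AT3G17050 (28.9 and 5.30 CPM at 1 h, adjusted p = 0.0226) and GRP9, which had 71 reads at 1 h, 56 of them in replicate 2, and 3 at 4 h. AT3G55240 and AT2G20670 fell by 2.81 and 2.54.

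The shade libraries share no sample with the sun libraries, and they were harvested at the same clock times. Both comparisons used 1 shared estimate of spread, so genes called in sun were partly selected for close shade replicates. This selection can raise the shares below without overlap or called in shade, by an amount that was not tested. In shade 383 genes rose and 362 fell (2.07% and 1.95% of the genes tested). Of the 749 genes called in sun, 708 (94.5%) had a change of the same sign in shade, against 68.0% of all tested genes. Of the 459 that rose, 376 (81.9%) had shade libraries that did not overlap in the same direction and 188 (41.0%) were called higher in shade. Of the 290 that fell these were 267 (92.1%) and 144 (49.7%). Over all tested genes these shares were 35.9% and 3.80%, and 46.3% had shade groups that did not overlap in either direction. The median shade change was 0.64 in the genes that rose in sun and -0.76 in those that fell.

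**Figure D5:**
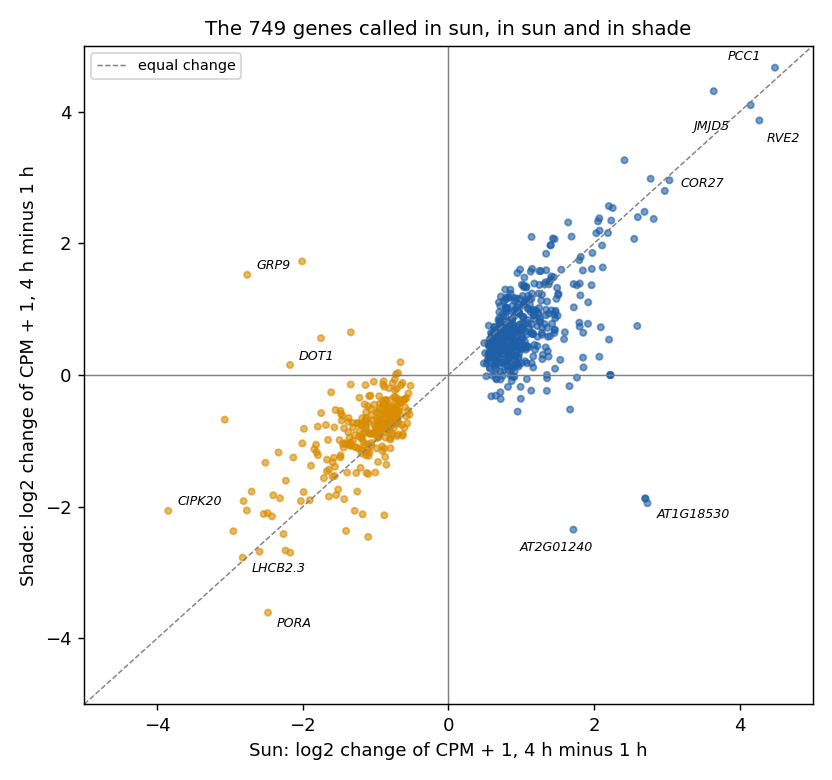
Log2 change of CPM + 1 from 5 h to 8 h after lights on in sun (horizontal) and in shade (vertical) for the 749 genes called in sun. Blue genes rose and orange genes fell in sun, and the dashed line marks equal change. Of these genes 708 have the same sign in both, while DOT1, GRP9, AT1G18530 and AT2G01240 do not.

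Among the clock genes, 4 morning genes fell and 1 rose in shade, and 11 day and evening genes rose and 2 fell. RVE2 changed by 4.27 in sun and 3.87 in shade. GI, which fell in sun, changed by 0.03 in shade, and the difference of 0.72 did not pass (adjusted p = 0.748). Over all tested genes limma called 2 genes (0.0108%) for a difference between the shade and the sun change, with 1010 at an unadjusted p under 0.05, and edgeR and DESeq2 called 4 and 16. DOT1, a glycine-rich protein, had 43.3 and 43.8 CPM in sun at 1 h and 9.48 and 8.31 CPM at 4 h, a log2 change of -2.17 (standard error 0.22, adjusted p = 0.000144). In shade it had 22.7 and 17.2 CPM at 1 h and 20.6 and 23.8 CPM at 4 h, and the shade change minus the sun change was 2.33 (standard error 0.31, adjusted p = 0.0356). The fall was seen in sun and the shade groups overlapped. KAT1, a potassium channel of guard cells, had 11 and 11.4 CPM in sun at 1 h and 17.4 and 15.2 CPM at 4 h (0.50, standard error 0.21, adjusted p = 0.207). In shade it fell from 85.2 and 86.2 to 22.3 and 17.4 CPM, and the difference was -2.57 (standard error 0.29, adjusted p = 0.0102).

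Without either shade 1 h library or any 1 sun library, limma called no difference, and it called 27 and 203 without shade 4 h replicates 1 and 2. With 1 library left out, the adjusted p of the difference ranged from 0.00601 to 0.44 in DOT1 and from 0.000503 to 0.307 in KAT1. Without a filter on low values it was 0.141 in DOT1 and 0.0398 in KAT1. AT1G18530 had a difference of -4.68 and AT2G01240 of -4.07, both at an adjusted p of 0.0734. AT2G01240, a reticulon-like protein, was called in both, higher at 4 h in sun (0 and 0 to 2.21 and 2.37 CPM, adjusted p = 0.0424) and lower in shade (4.97 and 4.60 to 0 and 0.291 CPM, adjusted p = 0.00918). NIA1, a nitrate reductase, had 37.1 and 62.8 CPM at 1 h and 27.6 and 27.1 CPM at 4 h in sun, with a difference of 2.0 (adjusted p = 0.0734). GRP9 had a difference of 4.29 (adjusted p = 0.121).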

How the data were processed

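Expression was measured by RNA sequencing in 8 libraries of Col leaves and shoot apices, of which the 4 sun libraries form the comparison. The authors mapped reads with TopHat to TAIR10, and deposited CPM values scaled with edgeR. Versions, the counting program and the treatment of reads with several matches are not given in the sources used here. Column sums ran from 986042 to 1015651. Of 33602 genes, 32835 were matched to the TAIR10.1 annotation, which supplied names and promoters. The 279 organelle genes were at 0 in every library. Unused columns of values per sample numbered 0, and the labels name no batch.

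Genes with at least 1 CPM in 2 of the 4 sun libraries were analysed as log2(CPM + 1), which understates changes of low genes, with limma 3.58.1 in R 4.3.3. All 4 groups shared 1 estimate of spread (4 residual and 9.5 prior degrees of freedom). Adjustment was by Benjamini-Hochberg over 18518 genes. In the deposited columns 100% of values were whole multiples of 1 read (tolerance 0.01), and edgeR 4.0.16 on these reads called 1057 genes. DESeq2 1.42.0 was run on them too. Intervals and floors (3 reads over a group) cover counting error only.

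Named genes were all members of the morning and of the day and evening clock lists, the 12 largest rises and falls among calls without overlap, up to 4 members of each other list by smallest p and members needed to show a list, the 5 genes with the smallest p for the difference between shade and sun, and DOT1 and KAT1. Gene lists and members were chosen with earlier results of these data known. Of the 749 called genes, 229 (30.6%) overlap another annotated gene model. Alternatives were pseudocounts of 0.25 and 5, no filter, a minimum of 5 CPM, other scalings, a replicate block, only the sun libraries and each library left out. The promoter window of 1 gene is not reported here. Figures were drawn with matplotlib 3.10.9.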

Additional observations from a re-analysis of the deposited data

Results flagged for a closer look

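DOT1 and KAT1 had time changes that differed between shade and sun by the interaction test of limma. The shade change minus the sun change was 2.33 on the log2 scale in DOT1 (standard error 0.31, adjusted p = 0.0356) and -2.57 in KAT1 (standard error 0.29, adjusted p = 0.0102). Without a filter on low values the adjusted p of DOT1 was 0.141. In DOT1 both sun libraries at 4 h were below both at 1 h and the shade groups overlapped. In KAT1 the 4 h libraries were above the 1 h libraries in sun and below them in shade. Its sun change of 0.50 did not pass (limma adjusted p = 0.207). Groups did not overlap in 56.3% of all tested genes in sun and in 46.3% in shade.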

How the results depend on the processing

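Of the 749 calls in sun, the number changed to 328 without a filter, to 2548 with the 4 sun libraries alone and to 48 at an adjusted p under 0.001. With 1 library left out it was between 88 and 1796, and the lone sample of a group is then assumed to vary like the others. Every one of the 749 genes that was still tested kept its direction under each alternative. Only the other scalings, edgeR and DESeq2 could have changed a direction. The remaining settings left the sun change as it was, or could not reverse it in genes whose times did not overlap. With edgeR 697 and with DESeq2 577 of the 749 were shared, among 1057 and 724 calls, of which 42.5% and 43.4% were rises. Leaving out the shade libraries other than shade 4 h replicate 1 was chosen after seeing the data. The 745 calls in shade became 335 without a filter and 163 to 3469 with 1 library left out, and 52 at an adjusted p under 0.001. The 2 genes with a difference between shade and sun became 16 with DESeq2, 4 with edgeR, 3 with a pseudocount of 5, 1 with the replicate block, 0 at an adjusted p under 0.001, and 0 to 203 with 1 library left out. Residuals of same-numbered sun libraries correlated at -0.0546 across genes and those of other pairs of groups between -0.062 and 0.107, so the numbers were not taken as pairs. The replicate block gave 809 calls in sun and 922 in shade, and an adjusted p for the difference of 0.0554 in DOT1 and 0.0146 in KAT1. Of the 114 named genes called in sun, 39 lost the call without a filter, 10 after median ratio rescaling, 7 after quantile normalization, 2 with edgeR and 7 of 103 that had an adjusted p with DESeq2. Leaving out 1 sun library lost 54 to 67 of these calls. Counting error sets the limit for genes near 1 CPM, where 1 read is 0.221 to 0.279 CPM.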

Other observations

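ECS1, WRKY70, WAK1, NDR1, LURP1 and CNGC11 are in no list and were chosen after their values were seen. No list of such genes was counted, and in the salicylic acid list 1 of 6 genes was called. ECS1, an apoplastic protein, went from 117 and 63.1 to 360 and 371 CPM (log2 change 2.07, adjusted p = 0.000155 from limma). WRKY70, a close relative of WRKY54, went from 24.9 and 7.81 to 50.7 and 45.1 CPM (1.69, adjusted p = 0.0214), WAK1, a wall-associated kinase, from 10.2 and 5.30 to 30.0 and 26.8 CPM (1.80, adjusted p = 0.00745), and NDR1, which acts downstream of resistance proteins, from 3.98 and 3.35 to 9.26 and 12.6 CPM (1.34, adjusted p = 0.0424). LURP1 and CNGC11 rose by 2.55 and 2.60. All 6 had shade changes of the same sign, between 1.39 and 2.40. The sign was also the same in 92.8% of the 459 genes that rose in sun. In WRKY70, WAK1 and ECS1 the 1 h replicate 2 was the lower one, as it was in ACD6.

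IRX12, XSP1 and TED7 were also chosen after their values were seen, and in the vascular list 1 of 7 genes was called. IRX12, a laccase, went from 4.73 and 4.74 to 21.2 and 20.2 CPM (1.92, adjusted p = 0.0122 from limma), XSP1, a xylem serine protease, from 5.73 and 5.86 to 17.9 and 15.0 CPM (1.35, adjusted p = 0.0170), and TED7 from 1.25 and 0 to 9.70 and 6.65 CPM (2.59, adjusted p = 0.0346). In shade these genes changed by 0.78, -0.24 and 0.75 and were not called, and the difference between shade and sun did not pass in any of them (adjusted p between 0.484 and 0.915). RPT2 and JAC1, which act in phototropin responses, fell by 1.55 and 1.57 in sun. They too are in no list and were chosen after their values were seen. The phototropin genes PHOT1 and PHOT2 of the light signalling list changed by 0.08 and 0.35 and were not called.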
